A study of Mus musculus with 23 samples.

Results

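The mRNA levels of 43 genes of the DNA replication machinery were followed in TM4 cells, an immortalised mouse Sertoli cell line, after treatment with 5 plasticizer-related compounds. The rule for the list was their known roles, and it used no measured value, though earlier results of these data were known. They fall into 6 groups. These are 8 genes that license origins, 12 that form or activate the helicase and 9 of the DNA polymerases and primase. The others are 6 of the sliding clamp and its loader, 6 for single-strand binding and strand maturation, and 2 of ribonucleotide reductase. All 43 had at least 1 named probe among the 20145 genes with one on the array, and all 43 passed the filter on dim probes in every comparison. Each compound was given at 100 μM for 48 h with the vehicle listed at 1% DMSO, and control cells received 1% DMSO alone. The compounds were MEHP, which is mono(2-ethylhexyl) phthalate, a phthalate monoester formed in the body from a widely used plasticizer, DINCH, a commercial cyclohexane dicarboxylate plasticizer, BDB, the dibenzoate of 1,4-butanediol, DOS, which is dioctyl succinate, and DOM, which is dioctyl maleate. DOM and DOS carry the same alcohol chains and differ in the diacid core, maleate in DOM and succinate in DOS. RNA was converted to labelled cRNA and hybridised to 23 one-colour arrays on 3 slides, 4 arrays per group and 3 for DOS, whose replicate 2 was not used here.

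Before a cell divides it must copy its genome once. Origins are licensed in G1, when the origin recognition complex (the Orc proteins), Cdc6 and Cdt1 load the Mcm2 to Mcm7 ring onto DNA, and in S phase Cdc45 and the GINS complex turn that ring into the active helicase. DNA polymerase alpha with primase starts each strand, the clamp Pcna, loaded by replication factor C, tethers polymerases delta and epsilon, and Fen1, Dna2 and Lig1 finish the lagging strand. Ribonucleotide reductase supplies the deoxyribonucleotides. Many of these genes are transcribed in bursts at the G1 to S transition under E2F factors, so their mRNAs are abundant in dividing cells. Sertoli cells divide before puberty and stop thereafter, and TM4 cells divide in culture. In RNA from whole cultures, fewer cells in S phase and less RNA of these genes per cell cannot be told apart.

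A level below is the log2 of a probe's processed signal minus the 75th percentile of its array, a change is the difference of 2 group means on that scale, and the value of a gene with several probes is that of its brightest probe. Genes count as called where at least 1 probe reached an adjusted p under 0.05 (limma, Benjamini-Hochberg over all tested probes) together with a change over 1.5-fold. Between 43.4% and 52.2% of spots were well above background per array, and no spot was saturated. Every slide held DMSO and DOM arrays. DOM, DOS and DMSO arrays lay in other rows of the slides than the MEHP, BDB and DINCH arrays, so the row cannot be told apart from comparisons across these sets. Of 15 Sertoli cell markers, 9 were well above background on every DMSO array and 7 on every DOM array, while Wt1, Fshr and Cldn11 were so on no array of any group. The summed Sertoli marker level (linear scale) ran from 12.7 to 26.7 on DMSO arrays and from 41.8 to 68.5 on DOM arrays. Inhbb, a subunit of inhibin B, carried most of that sum, with 10.0 to 23.6 on DMSO and 38.9 to 64.8 on DOM arrays, while the other 14 markers together held 2.68 to 3.10 and 2.94 to 4.09. Of the 9 markers tested, Inhbb and Inha were called higher and Sox9 lower with DOM, and 4 of the 9 changes were below 0. None of 6 germ cell markers was well above background on every array of either group, and their summed level stayed between 0.09 and 0.13 on DMSO and between 0.10 and 0.12 on DOM arrays. Of the markers of Leydig cells, peritubular myoid cells, macrophages and endothelial cells, 1 of 5, 2 of 4, 1 of 3 and 2 of 4 were well above background on every array of both groups. What part the marker difference has in the results below was not tested.

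DOM lowered most of the replication machinery. With DOM, 35 of the 43 genes were called, and all 35 fell. Among all 12005 genes tested in this comparison 10.6% were called lower, against 81.4% of the members. The median change of the members was −0.92, from −1.94 for Pole2 to −0.08 for Gins3, and all 43 changes were below 0 (41 with quantile normalization), while the median over all genes was −0.03. In 37 members the adjusted p was under 0.05, against 4268 of all 12005 genes. Gins4 and Rfc2 were among the 37 but changed by less than 1.5-fold. Against DMSO, 4 of the 43 genes were called with DINCH and 0 with MEHP, BDB or DOS. Slide by slide, with no test, the median member change between DOM and DMSO arrays was −1.13 on slide 1, −0.69 on slide 2 and −1.13 on slide 3, with 43, 43 and 41 of the 43 genes lower.

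**Figure D1:**
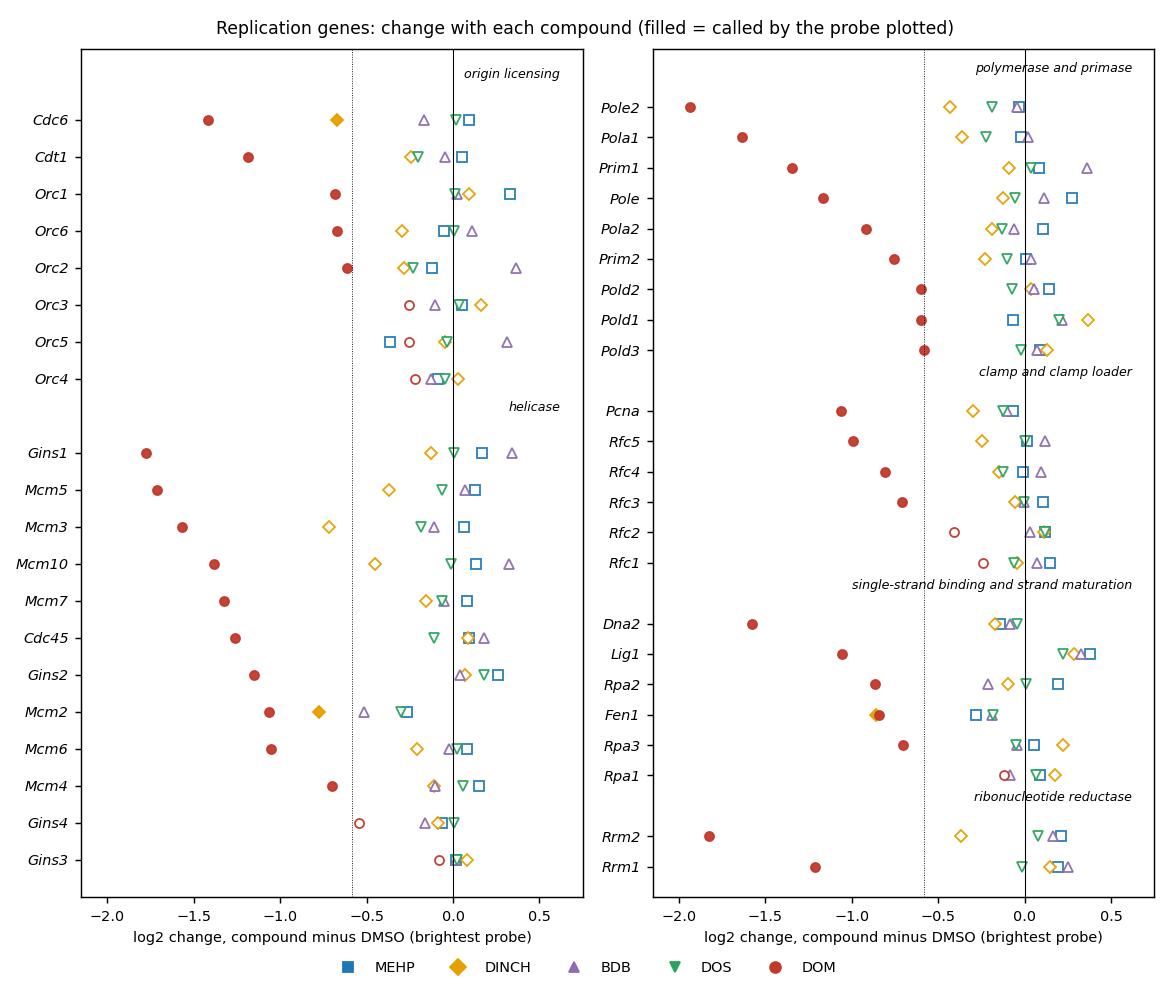
Log2 change of each of the 43 replication genes against DMSO (x axis, brightest probe) for the 5 compounds, genes in rows within their 6 groups and ordered by the change with DOM. Filled symbols are called by the probe plotted, and the dotted line marks a 1.5-fold decrease. The DOM symbols lie left of 0 in every row, though Gins3 and Rpa1 changed sign with quantile normalization, whereas those of MEHP, BDB and DOS gather around 0.

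Origin licensing genes split into factors that fell with DOM and Orc subunits that were not called. Of the 8 genes 5 were called, with a median change of −0.64. Cdc6, the ATPase that helps to load the Mcm ring, had levels of −0.13, −0.75, −0.46 and −0.69 on the DMSO arrays and −1.55, −1.96, −1.39 and −2.82 on the DOM arrays. Every DOM array was below every DMSO array, and the mean fell by 1.42 ± 0.29 (SE, adjusted p = 0.00629), a 2.68-fold decrease. The second Cdc6 probe changed by −0.94 (SE 0.18, adjusted p = 0.0041). Cdt1, which delivers the Mcm ring to origins, lay between 5.11 and 5.59 on DMSO arrays and at 4.36, 3.84, 4.16 and 4.10 on DOM arrays. The groups did not overlap, and the change was −1.19 (SE 0.14, adjusted p = 0.000628). Orc1, an ATPase subunit of the origin recognition complex, changed by −0.68, Orc6 by −0.67 and Orc2 by −0.62, each lower on all 4 DOM arrays. Of the complex's other subunits, Orc3 was at 3.44, 3.5, 3.45 and 3.63 on DMSO arrays and at 3.43, 3.03, 3.06 and 3.47 on DOM arrays, a change of −0.25 (SE 0.13, adjusted p = 0.161). Orc4 was at −0.91, −1.02, −1.09 and −0.76 on DMSO arrays and at −0.88, −1.32, −1.21 and −1.26 on DOM arrays, a change of −0.22 (SE 0.13, adjusted p = 0.213). For Orc3 and Orc4 the ranges of the 2 groups overlapped on 1 DOM array each. Orc5 was at −0.05, −0.45, −0.44 and −0.08 on DMSO arrays and at −0.61, −0.44, −0.69 and −0.29 on DOM arrays, a change of −0.25 (SE 0.14, adjusted p = 0.191).

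The helicase was lowered in nearly all of its parts. Of 12 genes 10 were called with DOM, with a median change of −1.21. Mcm5, a subunit of the ring, was at 4.49, 4.34, 4.36 and 4.34 on DMSO arrays and at 2.79, 2.67, 3.0 and 2.21 on DOM arrays. The highest DOM value lay more than 1 log2 unit under the lowest DMSO value, and the change was −1.71 (SE 0.16, adjusted p = 0.000266), a 3.28-fold decrease. All 6 ring subunits were called, and the other 5 changed by −1.57 (Mcm3), −1.33 (Mcm7), −1.06 (Mcm2), −1.05 (Mcm6) and −0.70 (Mcm4). Mcm10, a helicase activator, changed by −1.38 (SE 0.21), and Cdc45, a subunit of the active helicase, by −1.26 (SE 0.16). The GINS complex holds 4 subunits in equal numbers, and their mRNAs responded unequally. Gins1 was at 1.83, 1.32, 1.46 and 1.40 on DMSO arrays and at −0.02, −0.38, 0.14 and −0.83 on DOM arrays, a change of −1.78 (SE 0.21, adjusted p = 0.000572). Gins2 changed by −1.15 and was also called. Gins4 was at 4.43, 4.25, 4.22 and 4.28 on DMSO arrays and at 3.84, 3.78, 3.75 and 3.64 on DOM arrays, with no overlap. Its change of −0.54 (SE 0.09, adjusted p = 0.00282) was 1.46-fold and so was not called. Gins3 was at 6.36, 6.42, 6.35 and 6.35 on DMSO arrays and at 6.27, 6.26, 6.20 and 6.43 on DOM arrays, a change of −0.08 (SE 0.09, adjusted p = 0.52), and with quantile normalization it was 0.11.

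All 9 polymerase and primase genes were called lower with DOM, with a median change of −0.92. Pole2, the accessory subunit of the leading-strand polymerase epsilon, showed the largest change of the 43 genes. It was at 1.18, 0.76, 0.97 and 0.61 on DMSO arrays and at −0.71, −1.20, −0.80 and −1.53 on DOM arrays, a change of −1.94 (SE 0.20, adjusted p = 0.000355) or 3.83-fold. Pole, its catalytic subunit, changed by −1.17 (SE 0.19). Pola1, the catalytic subunit of polymerase alpha, was at 2.62, 2.04, 2.09 and 2.10 on DMSO arrays and at 1.07, −0.37, 1.08 and 0.52 on DOM arrays. Its DOM arrays spread more widely (SD 0.68, n = 4) than its DMSO arrays (SD 0.27, n = 4), and the change was −1.64 (SE 0.31, adjusted p = 0.00417). Prim1 and Prim2, the primase subunits, changed by −1.35 and −0.76, and Pola2 by −0.92. The polymerase delta genes Pold1, Pold2 and Pold3 changed least in this group, by −0.60, −0.60 and −0.58, all close to the 1.5-fold limit. The calls of these 3 genes were lost under 5 to 7 of 20 other settings, more often than those of other members.

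Of the 6 clamp and clamp loader genes 4 were called with DOM, with a median change of −0.76. Pcna, the sliding clamp, was at 6.21, 5.90, 5.97 and 5.97 on DMSO arrays and at 5.28, 4.83, 5.06 and 4.63 on DOM arrays, a change of −1.06 (SE 0.15, adjusted p = 0.00111). Rfc5 was at 4.27, 4.11, 4.08 and 4.05 on DMSO arrays and at 3.08, 3.19, 3.36 and 2.91 on DOM arrays, a change of −0.99 (SE 0.11, adjusted p = 0.000535). Neither gene's groups overlapped. Rfc4 and Rfc3, which form the small-subunit part of the loader with Rfc2 and Rfc5, changed by −0.81 and −0.71, and the second probe of Rfc4 changed by −0.84. Rfc2 was at 3.23, 3.08, 3.07 and 3.35 on DMSO arrays and at 2.90, 2.76, 2.63 and 2.80 on DOM arrays. It passed the adjusted p (change −0.41, SE 0.11, adjusted p = 0.0174) but not the fold limit. Rfc1, the large subunit, was at 4.40, 3.96, 4.08 and 3.86 on DMSO arrays and at 3.94, 3.67, 3.80 and 3.92 on DOM arrays, groups that overlapped (change −0.24, SE 0.13, adjusted p = 0.193).

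Of the 6 genes for single-strand binding and strand maturation 5 were called with DOM, with a median change of −0.86. Dna2, a nuclease-helicase that trims Okazaki fragment flaps, was at −2.46, −2.48, −2.56 and −2.76 on DMSO arrays and at −4.38, −4.47, −3.07 and −4.65 on DOM arrays. It was well above background on 2 of the 4 DOM arrays, so its change of −1.58 (SE 0.31, adjusted p = 0.00492) includes values near background, and its call was lost with normexp background correction. Lig1, the ligase that seals the fragments, was at 4.60, 4.29, 4.34 and 4.29 on DMSO arrays and at 3.44, 3.25, 3.49 and 3.11 on DOM arrays, a change of −1.06 (SE 0.12, adjusted p = 0.000523). Fen1, the flap endonuclease, was at 4.60, 4.38, 4.69 and 4.45 on DMSO arrays and at 3.89, 3.53, 3.99 and 3.34 on DOM arrays, a change of −0.84 (SE 0.16, adjusted p = 0.00387). Replication protein A, the trimer that coats single-stranded DNA, was lowered in 2 of its 3 mRNAs. Rpa2 changed by −0.87 and Rpa3 by −0.70. Rpa1, its large subunit, was at 5.73, 5.64, 5.60 and 5.72 on DMSO arrays and at 5.80, 5.42, 5.51 and 5.47 on DOM arrays. Its highest value over the 8 arrays was on a DOM array, the change was −0.12 (SE 0.11, adjusted p = 0.414), and with quantile normalization it was 0.01.

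Both ribonucleotide reductase genes were called lower with DOM. Rrm2, the regulatory subunit made in S phase, was at 4.35, 3.95, 4.02 and 3.86 on DMSO arrays and at 2.42, 2.15, 2.85 and 1.45 on DOM arrays, a change of −1.83 (SE 0.26, adjusted p = 0.0013) or 3.54-fold. Rrm1, the catalytic subunit, was at 5.02, 4.34, 4.49 and 4.53 on DMSO arrays and at 3.55, 3.31, 3.39 and 3.27 on DOM arrays, a change of −1.21 (SE 0.15, adjusted p = 0.000687). DMSO replicate 1 gave the highest Rrm1 value, and the DOM arrays were below the other DMSO arrays too.

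**Figure D2:**
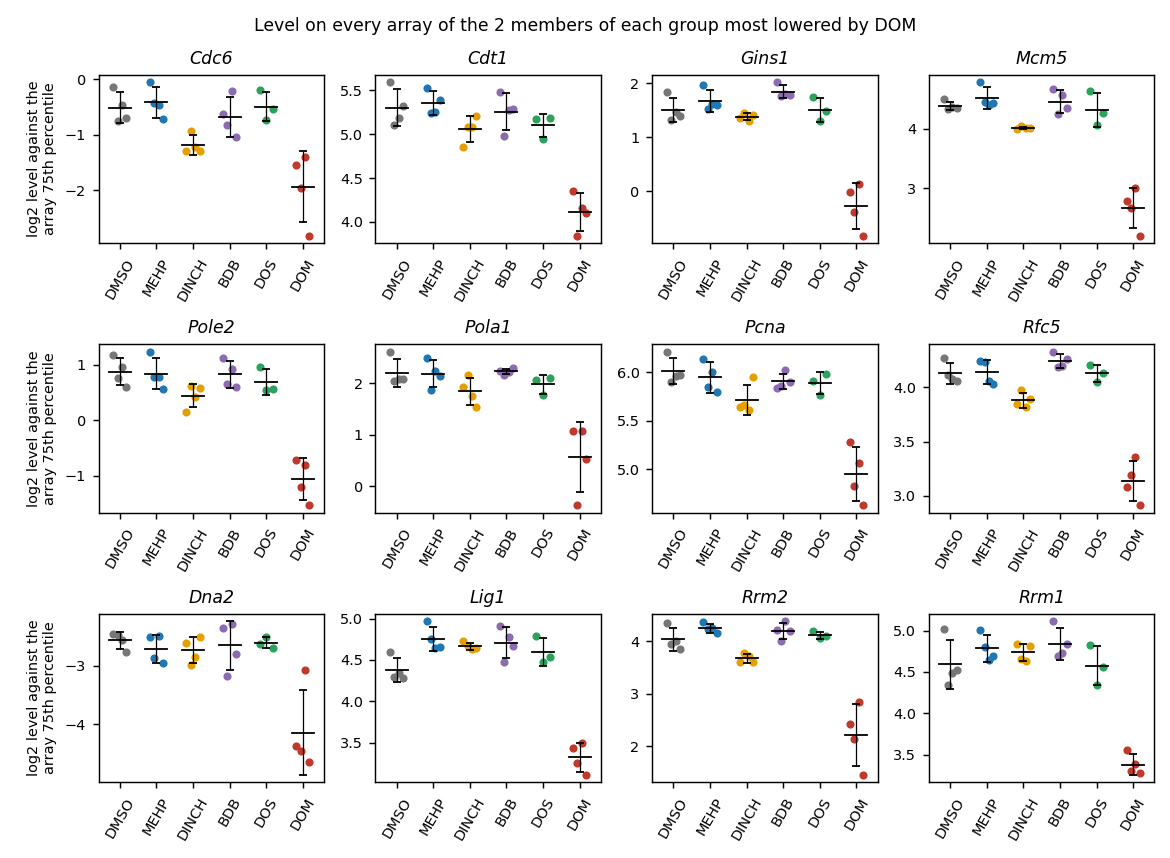
Level of the 12 genes that changed most with DOM in their groups (y axis, log2 against the 75th percentile of the array) on every array of the 6 treatments (x axis). Points are arrays, horizontal bars the means and error bars the SD (n = 4, DOS n = 3). All DOM points lie below all DMSO points in each panel, which partly follows from picking genes by the size of this change. The y axes differ between panels and do not start at 0.

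The 6 groups of genes moved together on every DOM array. The median over the 43 genes, each set against its DMSO mean, ran from −1.07 to −0.74 on the 4 DOM arrays, with a mean of −0.89 ± 0.17 (SD, n = 4). The DMSO arrays themselves ran from −0.13 to 0.24, MEHP arrays from 0.01 to 0.26, DINCH arrays from −0.22 to −0.06, BDB arrays from −0.14 to 0.21 and DOS arrays from −0.18 to 0.09. The DOM arrays lay below all others, and each of the other 4 compounds overlapped the range of DMSO. DMSO replicate 1 had the highest median of the DMSO arrays. Replicate 1 was also highest with MEHP (0.26), BDB (0.21), DOS (0.09) and DOM (−0.74), and with DINCH it was level with replicate 4 (both −0.06). Without DMSO replicate 1, 32 members were called with DOM, the calls of Orc2, Pold1 and Pold2 being lost, and the median member change was −0.82.

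**Figure D3:**
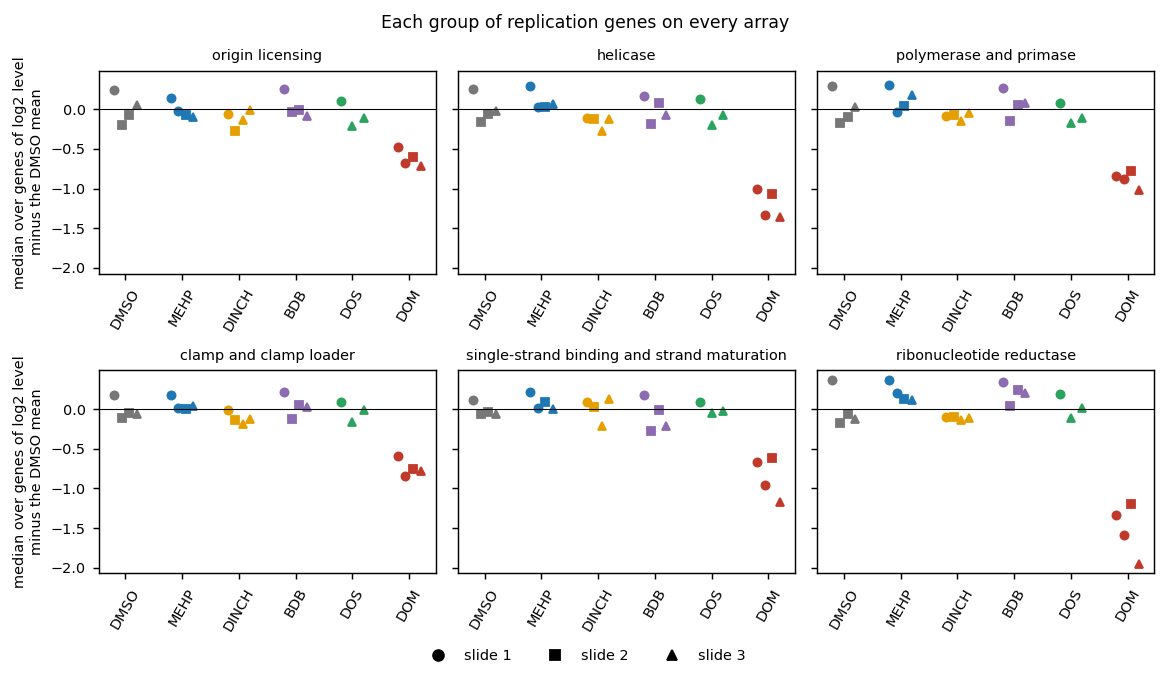
Median over the genes of each of the 6 groups of the log2 level minus the gene's DMSO mean (y axis), 1 point per array, by treatment (x axis) and slide (symbol). The DOM points lie between −0.48 and −1.96 over the 6 panels and below every other point of their panel on each of the 3 slides.

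Subunits of one complex could differ in their response. Differences between 2 probes of the same array do not depend on how arrays are scaled. The Gins1 level minus the Gins3 level was 1.70 lower on DOM than on DMSO arrays, and the Gins2 level minus the Gins3 level fell by 1.07. For replication protein A the Rpa2 level minus the Rpa1 level fell by 0.74 and that of Rpa3 fell by 0.58. For the clamp loader the Rfc5 level minus the Rfc1 level fell by 0.75. For the origin recognition complex the Orc6 level minus the Orc4 level fell by 0.45, and that of Orc1 fell by 0.46. In each of these pairs 4 of 4 DOM arrays lay below all DMSO arrays. The pairs were formed after the changes were known, so they carry no test. They show unequal change, and not that Gins3, Rpa1, Rfc1 or Orc4 did not change.

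DINCH lowered few replication genes. With DINCH 4 of the 43 genes (9.3%) were called, all lower, against 4.02% of all 11913 genes called lower. Called in either direction were 8.26% of all genes, close to the share of the members. The median member change was −0.13, or −0.04 without DMSO replicate 1. Fen1 was at 3.01, 3.90, 3.85 and 3.93 on DINCH arrays, all below the lowest DMSO array at 4.38, a change of −0.86 (SE 0.20, adjusted p = 0.029). DINCH replicate 1 lay apart from the other 3. Mcm2 was at 2.72, 3.05, 2.87 and 3.23 on DINCH arrays and at 4.03, 3.43, 3.63 and 3.88 on DMSO arrays, a change of −0.77 (SE 0.16, adjusted p = 0.0188). Cdc6 was at −1.30, −0.92, −1.22 and −1.29 on DINCH arrays, below all DMSO arrays, a change of −0.67 (SE 0.15, adjusted p = 0.0269). Orc3 was called by its dimmer probe (change −0.61, SE 0.17, adjusted p = 0.0498), while its brightest probe changed by 0.16, so its probes disagree in direction. The dimmer probe was not called with any other compound. Its changes were −0.70 (SE 0.19) with BDB, −0.44 (SE 0.13) with MEHP, −0.20 with DOM and −0.02 with DOS. Mcm5 also lay below DMSO on all 4 DINCH arrays, with a change of −0.37 (SE 0.08, adjusted p = 0.0269) that was under 1.5-fold. Mcm3 changed by −0.72 but did not pass the test (SE 0.27, adjusted p = 0.128), a change that was −0.44 without DINCH replicate 1, and both genes are named after their values were seen. The count of 4 rested on single arrays. It was 2 without DINCH replicate 1, 3 or 4 or without DMSO replicate 2, and 1 without DMSO replicate 1, 3 or 4. It was 0 when probes of all levels or probes detected on 1 array were tested.

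With MEHP, BDB and DOS 0 of the 43 genes were called by limma. With MEHP 1.68% of all 11948 genes were called in either direction, and 3 members (6.98%) had an unadjusted p under 0.05, against 18.9% of all genes. These were Orc1 (change 0.33), Fen1 (−0.28) and Lig1 (0.38), with a lowest adjusted p of 0.123 over the members. The median member change with MEHP was 0.08, from −0.36 for Orc5 to 0.38 for Lig1. Orc5 rested on MEHP replicate 3, and its change was −0.01 without that array. Pold1 was also low on that array, at 3.69, 3.43, 0.79 and 3.54 on MEHP arrays and from 2.63 to 3.29 on DMSO arrays. Apart from replicate 3, its MEHP arrays lay above every DMSO array. The median member change was 0.03 without MEHP replicate 1 or DMSO replicate 2, 0.05 without DMSO replicate 3 and 0.13 without DMSO replicate 1. With BDB 0% of all genes were called, and 6 members (14.0%) had an unadjusted p under 0.05, below the 16.3% of all genes. Mcm2 was among them, lower on all 4 BDB arrays than on every DMSO array (3.26, 3.18, 3.27 and 3.19), with a change of −0.52 (SE 0.13, adjusted p = 0.122). The other 5, Orc2, Mcm10, Gins1, Prim1 and Lig1, had changes from 0.32 to 0.36. With DOS 0% of all genes were called and 0 members had an unadjusted p under 0.05, and the changes ran from −0.30 for Mcm2 to 0.22 for Lig1. For 37 of the 43 genes the 95% interval of the DOS change lay inside 1.5-fold in both directions. For Mcm5 it ran from −0.39 to 0.26, for Gins1 from −0.36 to 0.37 and for Rrm2 from −0.23 to 0.38. For 5 genes, Pola1 among them (−0.61 to 0.15), the interval reached a 1.5-fold decrease, and for 1 gene an increase, so changes of that size were not excluded there. With MEHP 37 intervals lay inside 1.5-fold, 2 reached a decrease of that size and 5 an increase, and with BDB these were 33, 2 and 8. With the replicate number as a block, the DOS median was −0.08 with 34 of 43 genes lower, against −0.02 and 25 without it. DOS had no replicate 2, so that block took DMSO replicate 2 out of the difference. Leaving that array out without a block gave the same median and count.

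Direct tests set the compounds against each other at the same dose and time, 5 pairs in all. DOM and DOS differ in the core of the molecule. Between them 31 of the 43 genes were lower with DOM, against 8.06% of all 11935 genes called lower, and the median member difference was −0.80. Rrm2 was at 4.19, 4.06 and 4.10 on DOS arrays, against 1.45 to 2.85 on DOM arrays, a difference of −1.90 (SE 0.28, adjusted p = 0.0043). Gins1 differed by −1.78 (SE 0.23), Pole2 by −1.75 (SE 0.21) and Mcm5 by −1.65 (SE 0.21), with adjusted p of 0.0028, 0.0023 and 0.0025. The 12 genes not called were Orc1 to Orc5, Gins3, Gins4, Pold2, Pold3, Rfc1, Rfc2 and Rpa1, and all 43 differences were below 0. With the replicate number as a block, 30 were called, Orc1 being gained and Fen1 and Prim2 lost. DOS had no replicate 2, so DOM replicate 2 did not enter that difference. The count fell to 12 when dim probes were not filtered out. Against MEHP, 32 members were lower with DOM (9.90% of all genes, median −1.0), and against BDB 34 were lower (12.8% of all genes, median −0.90). Without MEHP replicate 3, Fen1 and Pold1 were called against MEHP as well. Against DINCH 29 were lower (11.6% of all genes, median −0.77). Fen1 (difference 0.02, SE 0.23), Mcm2 (−0.29, SE 0.14) and Cdc6 (−0.75, SE 0.27, adjusted p = 0.0596) were among the 14 members not called in that pair, and these 3 are the genes that were lower with DINCH by their brightest probes. Cdc6 was called in that pair when slide or replicate number was a block, with all 6 groups in 1 fit and with a variance trend. DINCH and MEHP differed in 2 members, Cdc6 (−0.77, SE 0.15, adjusted p = 0.0336) and Mcm10 (−0.59, SE 0.13, adjusted p = 0.046), against 1.22% of all genes called lower. That count was 0 without DINCH replicate 1 or 4 or MEHP replicate 1, 2 or 3, and 1 without DINCH replicate 3. The 4 comparisons that hold DOM share its arrays.

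Many genes that work beside the replication machinery were lower with DOM, and those called in the lists below all fell. Of all genes tested, 10.6% were called lower with DOM. Of 38 other replication genes, 36 were tested and 25 (69.4%) were called, all lower, with a median change of −0.88. Tk1, the thymidine kinase of the salvage pathway, lay between 2.82 and 3.76 on DMSO arrays and at 1.83, 1.08, 1.92 and 0.26 on DOM arrays, a change of −2.05 (SE 0.36, adjusted p = 0.003). Recql4, a helicase that takes part in origin firing, changed by −1.99 and Dscc1, a subunit of an alternative clamp loader, by −1.93. Pold4, the small polymerase delta subunit, changed by 0.42 (SE 0.11, adjusted p = 0.0174), under 1.5-fold and against its list, and is named after its value was seen. The 22 regulators of S phase responded less uniformly. Of 21 tested 8 (38.1%) were called, all lower, with a median of −0.27. Ccna2, the S phase cyclin A2, was at 4.45, 3.73, 4.02 and 3.89 on DMSO arrays and at 2.40, 1.98, 2.43 and 1.42 on DOM arrays, a change of −1.96 (SE 0.24, adjusted p = 0.000652). The repressors E2f8 and E2f7, themselves targets of E2F factors, changed by −1.90 and −1.49. The other 5 called were E2f2, E2f4, Rbl1, Ccne1 and Mybl2. Of the activators of the G1 to S genes, E2f1, E2f2 and E2f3, only E2f2 was called. It was at −0.08, −0.38, −0.20 and −0.47 on DMSO arrays and at −1.19, −1.56, −1.13 and −1.78 on DOM arrays, values given after they were seen. E2f1 was not called (−0.28, SE 0.12, adjusted p = 0.102). E2f3 was higher on all 4 DOM arrays, at 1.69, 1.45, 1.55 and 1.71 against 1.11, 1.30, 1.29 and 1.12 on DMSO arrays, a change of 0.39 (SE 0.10, adjusted p = 0.0174) that was under 1.5-fold. It is named after its value was seen. Cdkn1a, an inhibitor of cyclin-dependent kinases, was not called either (−0.25, SE 0.09, adjusted p = 0.0709). All 10 genes of G2 and mitosis were called lower, with a median change of −1.94, and Plk1 changed by −2.17 and Ccnb1 by −2.12. Aurkb, a mitotic kinase, was at −1.17, −0.76, −0.23 and −0.82 on DMSO arrays and at −4.42, −3.34, −1.95 and −5.60 on DOM arrays, where it was well above background on 3 of 4. Its change of −3.08 (SE 0.65, adjusted p = 0.0072) thus includes a value not well above background. With DINCH 5 of the 68 genes tested in these 3 lists were called (7.35%), close to the 8.26% of all genes called in either direction. Dscc1 (−0.88), Dut (−0.91), E2f4 (−0.70) and Myc (−0.74) were lower, and Pold4 (0.62) was higher.

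**Figure D4:**
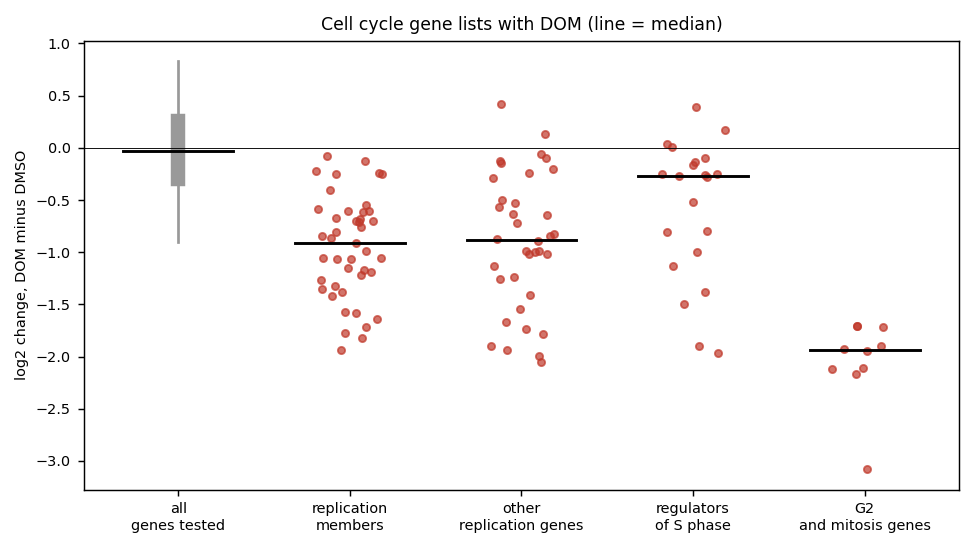
Log2 change with DOM against DMSO (y axis) of each tested gene of 4 lists, 1 point per gene, beside all 12005 genes tested, for which the thick bar spans the 25th to 75th and the thin line the 5th to 95th percentile. Horizontal lines are medians, at −0.03 for all genes, −0.92 for the 43 members, −0.88 for the other replication genes, −0.27 for the regulators and −1.94 for the genes of G2 and mitosis.

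Because the members moved together with DOM, the letters of known cell cycle elements were sought in their promoters. The window ran from 250 bases before to 50 bases after the start of the gene (RefSeq, GRCm38.p6). It was found for 36 of the 43 members, with 44 windows in all, and the 7 others were Mcm4, Gins1, Gins2, Gins4, Prim2, Pole and Rfc2. E2F letters were TTTGGCGC, TTTCCCGC, TTTGCCGC and TTTCGCGC, the elements searched beside them were CCAAT and the CHR letters TTTGAA, and all were read on both strands. At least 1 E2F form stood in 15 of 36 members (41.7%), against 4.66% of the 9607 genes tested with DOM that have a window and 2.60% of all 27025 genes. It stood in 13 of the 30 members called with DOM and in 2 of the 6 that were not called. With the shorter core GGCGGG, which shares letters with E2F forms, the shares were 77.8% of members and 66.5% of tested genes. CCAAT stood in 63.9% of members and 43.4% of tested genes, and TTTGAA in 13.9% and 14.4%. Of the 9 windows of G2 and mitosis genes, TTTGAA stood in 6 (66.7%) and E2F letters in 1. These are shares of windows that hold the letters, with no test, and say nothing of binding.

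The stretches below show the 170 bases before the start for 9 members with E2F letters in that span, written in the direction of transcription with the E2F letters in capitals. The first 7 were called lower with DOM, by 1.71 for Mcm5, 1.05 for Mcm6, 1.33 for Mcm7, 1.42 for Cdc6, 0.68 for Orc1, 1.64 for Pola1 and 0.71 for Rfc3 in absolute log2 terms. Orc3 and Gins3 were not called, and they are shown because they hold the same letters.
Mcm5, chr8:75109339-75109508, plus strand: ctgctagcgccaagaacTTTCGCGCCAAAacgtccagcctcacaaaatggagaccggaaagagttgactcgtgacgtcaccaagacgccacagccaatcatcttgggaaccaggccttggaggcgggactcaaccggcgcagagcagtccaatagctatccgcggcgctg
Mcm6, chr1:128359706-128359875, minus strand: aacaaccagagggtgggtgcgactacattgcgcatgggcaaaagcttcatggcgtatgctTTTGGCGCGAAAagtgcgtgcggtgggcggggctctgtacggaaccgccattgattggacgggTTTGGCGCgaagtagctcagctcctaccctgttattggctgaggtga
Mcm7, chr5:138171884-138172053, minus strand: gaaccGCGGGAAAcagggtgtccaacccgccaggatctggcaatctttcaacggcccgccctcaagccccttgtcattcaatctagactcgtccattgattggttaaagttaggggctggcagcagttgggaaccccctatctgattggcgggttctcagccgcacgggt
Cdc6, chr11:98907981-98908150, plus strand: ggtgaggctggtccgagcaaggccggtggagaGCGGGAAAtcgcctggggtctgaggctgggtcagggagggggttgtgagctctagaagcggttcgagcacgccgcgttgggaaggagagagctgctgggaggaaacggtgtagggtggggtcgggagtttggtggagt
Orc1, chr4:108579284-108579453, plus strand: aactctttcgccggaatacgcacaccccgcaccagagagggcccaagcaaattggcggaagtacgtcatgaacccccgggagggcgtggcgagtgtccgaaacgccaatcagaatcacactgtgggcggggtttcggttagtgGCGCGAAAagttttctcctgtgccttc
Pola1, chrX:93632156-93632325, minus strand: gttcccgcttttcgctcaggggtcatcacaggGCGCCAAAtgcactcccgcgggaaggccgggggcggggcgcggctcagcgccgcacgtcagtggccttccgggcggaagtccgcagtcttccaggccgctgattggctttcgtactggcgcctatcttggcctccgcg
Rfc3, chr5:151651209-151651378, minus strand: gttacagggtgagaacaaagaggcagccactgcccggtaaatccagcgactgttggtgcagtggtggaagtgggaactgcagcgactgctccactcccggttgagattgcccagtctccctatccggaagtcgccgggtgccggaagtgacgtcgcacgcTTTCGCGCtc
Orc3, chr4:34614943-34615112, minus strand: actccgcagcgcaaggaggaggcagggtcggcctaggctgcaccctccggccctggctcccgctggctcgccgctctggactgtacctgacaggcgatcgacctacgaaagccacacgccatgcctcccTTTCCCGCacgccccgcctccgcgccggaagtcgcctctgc
Gins3, chr8:95633389-95633558, plus strand: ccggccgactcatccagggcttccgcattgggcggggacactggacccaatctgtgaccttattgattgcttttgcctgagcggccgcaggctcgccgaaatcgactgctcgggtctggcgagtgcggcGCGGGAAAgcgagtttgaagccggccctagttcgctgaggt
In Mcm5 and Mcm6 a pair of forms on opposite strands overlapped, and Mcm6 held another nearer the start. Orc3 and Gins3 held their letters 41 bases before the start, at the same distance, on opposite strands. Orc1, called lower, held its letters 27 bases before the start. Called and uncalled members both held the letters, and whether their presence goes with being called was not tested.

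**Figure D5:**
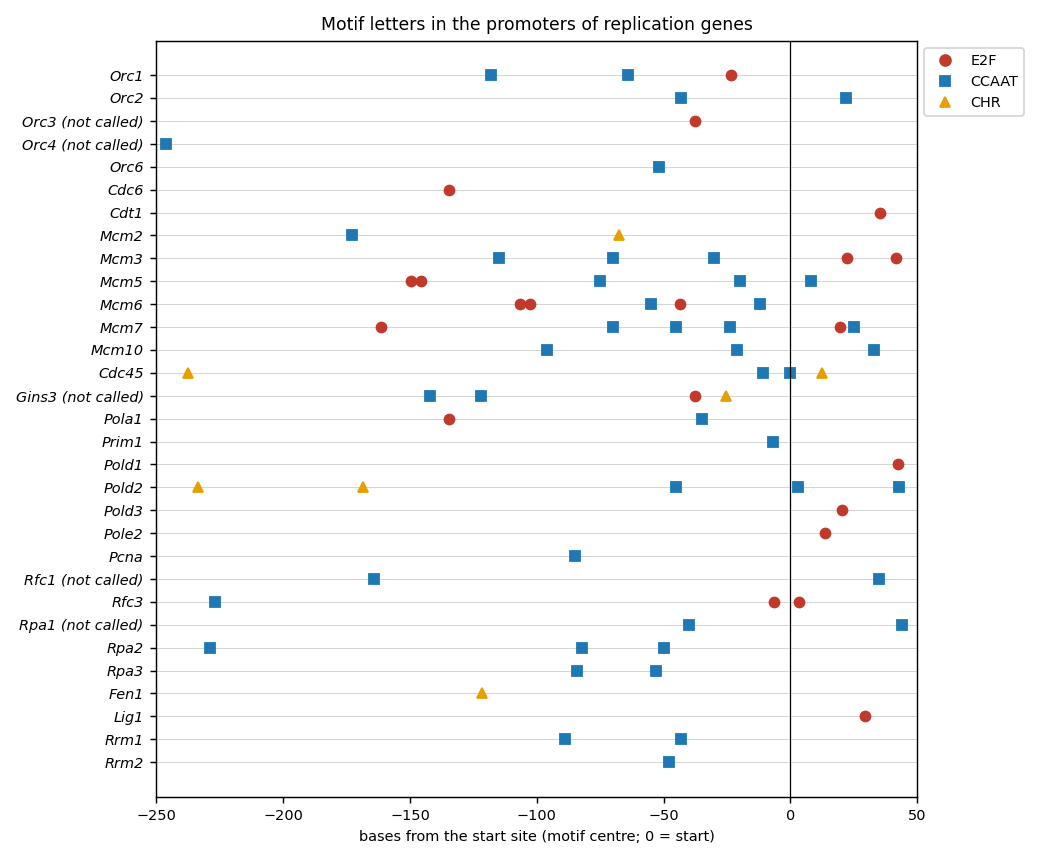
Distance from the start site (x axis, bases, 0 is the start) of E2F, CCAAT and CHR letters in the promoter windows of members that hold any of them (rows, grouped by role). Members not called with DOM are marked, and E2F letters appear in both kinds of row.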

How the data were processed

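One-colour Agilent arrays of 23 TM4 cultures were used. Nothing in the labels says that replicates came from separate cultures on separate days, so p-values measure the spread between these samples. The authors deposited Feature Extraction scanner files, whose processed signal intensity is background-corrected, and a table of log2 values that the authors normalised to the 75th percentile and set against the median of all samples. The second served as an alternative. From the processed intensity, outlier spots were dropped, values under 1 were set to 1, log2 was taken, the 75th percentile of non-control spots (204.6 to 350.7 in intensity) was subtracted per array, and spots of a probe were averaged. Of 55681 probes, 26582 were named through RefSeq accessions (20145 genes). Tests were restricted to probes that, in either group of a pair, cleared both the background flag and the 20th percentile on all arrays. Groups were compared in pairs with limma 3.58.1 in R 4.3.3, with Benjamini-Hochberg adjustment over all tested probes, at an adjusted p of 0.05 and 1.5-fold. Scripts were tested on simulated data.

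The members, the gene lists and the tests were chosen with earlier results of these data known. Named with values per array were the 2 members of each group that changed most with DOM among those called, all members not called with DOM and all called with another compound, and, from each other list, the 3 called genes that changed most with DOM. The row of the slide was added as a block after the data were seen. Same-numbered arrays deviated together from their group means against DMSO for DINCH (correlations 0.17 to 0.50), BDB (0.25 to 0.43) and DOS (0.20 to 0.45). They also did so between DOM and DOS (0.10 to 0.40) and DOM and MEHP (0.19 to 0.61). The numbers were therefore taken to pair arrays there. Most same-numbered arrays also shared a slide, so these correlations cannot tell the replicate number apart from the slide. Against DMSO the correlations ran from 0.04 to 0.43 for DOM, all above 0, and from −0.14 to 0.45 for MEHP. The numbers were not taken to pair arrays in these comparisons, a choice that the DOM range does not settle. With the replicate number as a block, 35 members were called with DOM, as without it. All values given are from fits without that block unless said otherwise. Precision is limited by the number of arrays.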

Additional observations from a re-analysis of the deposited data

Results flagged for a closer look

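Among 110 sets of 4 arrays, 1 for each named member and treatment, 10 held an array whose gap to the nearest of the others exceeded Dixon's 95% limit, where chance gives about 1 in 20. DMSO replicate 1 was high for Pola1 (2.62, others 2.04 to 2.10), Lig1 (4.60, others 4.29 to 4.34) and Mcm5 (4.49, others 4.34 to 4.36), and all DOM arrays lay below the other DMSO arrays for these genes too. DMSO replicate 2 was high for Gins3 (6.42, others 6.35 to 6.36). DINCH replicate 1 was low for Fen1 (3.01, others 3.85 to 3.93) and high for Gins4 (4.38, others 4.13 to 4.16), and DINCH replicate 4 was high for Pcna (5.95, others 5.61 to 5.66). MEHP replicate 3 was low for Orc5 (−1.67, others −0.33 to −0.19), and MEHP replicate 1 was high for Mcm5 (4.78, others 4.40 to 4.44). BDB replicate 1 was high for Gins1 (2.02, others 1.76 to 1.81). Members outside the named set, such as Pold1 with its low MEHP replicate 3, were not in this check. The causes were not tested.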

How the results depend on the processing

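The count of members called with DOM against DMSO stayed between 30 and 35 over 12 other settings and between 32 and 35 when 1 array was left out, with 0 called higher throughout. It was 35 with the replicate block and 35 with the row of the slide as a block. Pold1, Pold2, Pold3 and Orc2 were among the calls lost most often. The counts for MEHP, BDB and DOS stayed at 0. With DINCH the count of 4 became 2 with normexp background correction and 0 with no filter on dim probes or with detection on 1 array, and ran from 1 to 4 when 1 array was left out. DOM against DOS fell from 31 to 12 with no filter on dim probes, where more probes are tested. DINCH against MEHP fell from 2 to 1 with quantile normalization or normexp and to 0 with no filter, with detection on 1 array, with the slide as a block or with the replicate block, and ran from 0 to 2 when 1 array was left out. Same-numbered DINCH and MEHP arrays did not deviate together (correlations −0.19 to 0.26). The pairing changed no other count by over 1.5 times. With normexp the DOM median of origin licensing genes moved from −0.64 to −0.40 and that of polymerase and primase genes from −0.92 to −0.64. The polymerase median ran from −1.03 to −0.80 when 1 array was left out. With quantile normalization Gins3 (0.11) and Rpa1 (0.014) changed sign, neither past the test. The causes of these differences between settings were not tested. Genes near background, such as Dna2 on DOM arrays, and changes close to 1.5-fold are measured least firmly.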
